A study of Mus musculus with 6 samples.

Results

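The genes of the mitochondrial respiratory chain were measured in glomerular endothelial cells (GEC) of db/db and normal mice. Members were taken by symbol: the Ndufa, Ndufb, Ndufc, Ndufs and Ndufv families of complex I, Sdh of complex II, Uqcr and Cyc1 of complex III, Cox4 to Cox8 of complex IV, Atp5 of complex V, and Cycs, which is cytochrome c. Of 19938 genes that had a probeset with a single symbol, 95 matched. Each gene was read from its probeset with the highest mean signal, and 91 of the 95 reached a linear signal of 100 (log2 6.64) in at least 3 of the 6 arrays, as did 12763 genes in all. The 91 held 42 members of complex I, 8 of complex II, 9 of complex III, 14 of complex IV, 17 of complex V, and Cycs. The symbol families also brought in 11 assembly factors, 7 of complex I and 4 of complex II, which build the complexes but are not part of them.

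Tie2-GFP/ DB/DB mice, called db/db, were set against Tie2-GFP/ +/+ mice, called normal, all 7 months old. The db/db mouse carries a loss of leptin receptor function and becomes obese and diabetic, and the comparison asked how its GEC differ in gene expression. Tie2-GFP drives green fluorescence in endothelial cells through the Tie2 promoter, so GFP-positive cells of sieved glomeruli were sorted and their RNA put on 1 whole-transcript array per sample, 3 per group. Values are log2 probeset signal, and the median of an array lay between 7.00 and 7.04. The leptin receptor probeset was below the level in both groups, with 4.82, 4.81 and 4.85 in db/db replicates 1, 2 and 3, against 5.12, 4.87 and 4.77 in normal replicates 1, 2 and 3. The db allele is a splice defect of the long receptor form, so this probeset does not check the labels.

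The respiratory chain sits in the inner mitochondrial membrane. Complexes I and II pass electrons from NADH and succinate to ubiquinone, complex III hands them to cytochrome c, and complex IV gives them to oxygen, while complexes I, III and IV pump the protons that complex V uses to make ATP. Most subunits are encoded in the nucleus, a small core is encoded in mitochondrial DNA, and endothelial cells are known to draw much of their ATP from glycolysis. The transcription factors NRF1, GABP (of the ETS family) and YY1 are known to bind promoters of many of the nuclear genes.

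Promoter windows of 300 bases, taken from RefSeq on GRCm38.p6 and lying mostly upstream of the annotated start, were on hand for 75 of the 91 members (80 windows). The NRF1 core GCATGCGC, searched on both strands, was found in 13 windows (16.2%), against 4.7% of the windows of all genes kept on these arrays and 2.7% of all windows. The ETS motif CGGAAGT was found in 13 member windows (16.2%), against 11.8% and 6.4%. The YY1 motif AAGATGGC was found in 10 (12.5%), against 4.1% and 2.7%. At least 1 of these motifs was in 33 member windows (41.2%), against 18.8% and 11.1%. None of the 3 motifs contains another, and a match is a stretch of letters and not a measured binding site. One window for each complex and one for Cycs are shown so that these motifs can be seen in place. Each runs 5′ to 3′ on the strand of its gene, and capitals mark the motif.
Ndufs4 (complex I, YY1 motif, chr13:114388045-114388344, minus strand): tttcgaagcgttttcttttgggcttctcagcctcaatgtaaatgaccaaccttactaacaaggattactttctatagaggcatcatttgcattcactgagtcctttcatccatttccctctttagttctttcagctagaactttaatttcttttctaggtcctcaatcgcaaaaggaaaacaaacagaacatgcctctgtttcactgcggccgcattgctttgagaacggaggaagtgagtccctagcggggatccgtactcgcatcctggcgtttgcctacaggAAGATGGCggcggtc
Sdhb (complex II, NRF1 core, chr4:140961021-140961320, plus strand): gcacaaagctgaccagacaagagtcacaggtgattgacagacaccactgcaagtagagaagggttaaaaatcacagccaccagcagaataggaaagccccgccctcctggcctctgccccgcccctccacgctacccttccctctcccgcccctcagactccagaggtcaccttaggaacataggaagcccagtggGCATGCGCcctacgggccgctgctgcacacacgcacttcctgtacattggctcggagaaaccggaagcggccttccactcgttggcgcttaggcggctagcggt
Uqcr11 (complex III, ETS motif and NRF1 core, chr10:80406772-80407071, minus strand): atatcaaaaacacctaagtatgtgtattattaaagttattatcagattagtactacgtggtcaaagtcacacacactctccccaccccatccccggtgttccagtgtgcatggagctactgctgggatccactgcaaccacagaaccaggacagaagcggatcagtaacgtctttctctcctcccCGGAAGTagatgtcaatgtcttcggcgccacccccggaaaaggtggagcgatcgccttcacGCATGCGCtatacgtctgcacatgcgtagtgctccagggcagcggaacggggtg
Cox5b (complex IV, ETS motif, chr1:36691237-36691536, plus strand): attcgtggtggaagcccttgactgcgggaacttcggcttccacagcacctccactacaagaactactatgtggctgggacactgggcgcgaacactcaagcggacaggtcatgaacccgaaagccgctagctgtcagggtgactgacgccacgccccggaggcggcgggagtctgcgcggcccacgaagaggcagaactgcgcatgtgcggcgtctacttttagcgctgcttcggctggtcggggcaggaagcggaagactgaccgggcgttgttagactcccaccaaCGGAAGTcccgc
Atp5g2 (complex V, NRF1 core, chr15:102670998-102671297, minus strand): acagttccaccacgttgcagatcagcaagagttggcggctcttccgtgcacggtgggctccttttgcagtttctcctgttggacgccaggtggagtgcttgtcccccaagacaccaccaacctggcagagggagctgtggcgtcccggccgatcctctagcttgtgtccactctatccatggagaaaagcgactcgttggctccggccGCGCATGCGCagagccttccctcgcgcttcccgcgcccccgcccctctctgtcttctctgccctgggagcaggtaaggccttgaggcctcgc
Cycs (NRF1 core, chr6:50566520-50566819, minus strand): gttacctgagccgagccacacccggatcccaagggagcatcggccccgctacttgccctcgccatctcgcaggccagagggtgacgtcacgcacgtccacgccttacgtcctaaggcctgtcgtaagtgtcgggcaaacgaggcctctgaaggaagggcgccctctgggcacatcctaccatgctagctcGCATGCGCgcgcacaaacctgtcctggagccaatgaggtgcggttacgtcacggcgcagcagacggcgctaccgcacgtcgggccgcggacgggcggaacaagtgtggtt
In the Atp5g2 window the core was matched on both strands, in 2 overlapping copies that form a palindrome. In the Ndufs4 window the YY1 motif lies near the downstream end, and in the Cox5b window the ETS motif does.

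The respiratory chain as a whole differed little between the groups. The mean log2 signal of the 91 members was 10.53, 10.57 and 10.52 in db/db replicates 1, 2 and 3, against 10.57, 10.48 and 10.57 in normal replicates 1, 2 and 3, and the groups overlapped. The group means were 10.54 ± 0.03 in db/db and 10.54 ± 0.06 in normal GEC (SD, n = 3 each). The median log2 change (db/db minus normal) was -0.017 over the members and 0.012 over all genes kept. By this measure 43 members had a higher mean in db/db and 48 a lower one. The changes ran from -0.49 to 0.81, and only Ndufs5 had a point estimate beyond 1.5-fold (0.58 on the log2 scale).

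No member passed the test. With limma and Benjamini-Hochberg adjustment over all 20661 probesets kept, 0 of the 91 members and 0 of all probesets had an adjusted p under 0.05, with a smallest value of 0.746 among members and 0.203 among all probesets. At an unadjusted p under 0.05, 3 members were higher in db/db (Ndufs4, Cox5a and Atp5o) and 0 were lower, whereas 3.48% of all probesets were higher and 2.91% lower (3.49% and 3.07% of all genes at 1 probeset each). The methods' t-test, unpaired with equal variance, gave 4 members an unadjusted p under 0.05 (Ndufs4 and Atp5o higher, Atp5j and Cox7a2l lower) and 0 after adjustment, so 4.40% of the members, against 6.20% of all probesets by the same test. In 7 members every db/db array lay above every normal array (Ndufb2, Ndufs3, Ndufs4, Uqcrc2, Cox5a, Cox6a2 and Atp5o), and in 6 every db/db array lay below (Ndufaf5, Sdhc, Uqcr10, Uqcr11, Cox7a2l and Atp5j), against 7.01% and 5.31% of all probesets and 7.39% and 5.92% of all genes. These shares of the members are near the background.

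The intervals give how large a difference the arrays leave room for. The 95% interval of the change lay within 1.5-fold in either direction for 69 of the 91 members (75.8%), against 66.4% of all genes and 60.1% of all probesets kept. The median residual SD was 0.137 for the members and 0.163 for all genes. The share with such a narrow interval was 16 of 17 in complex V, 7 of 9 in complex III, 30 of 42 in complex I, 10 of 14 in complex IV and 5 of 8 in complex II. For the other 22 members a difference of 1.5-fold in at least 1 direction could not be told at this number of arrays.

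**Figure D1:**
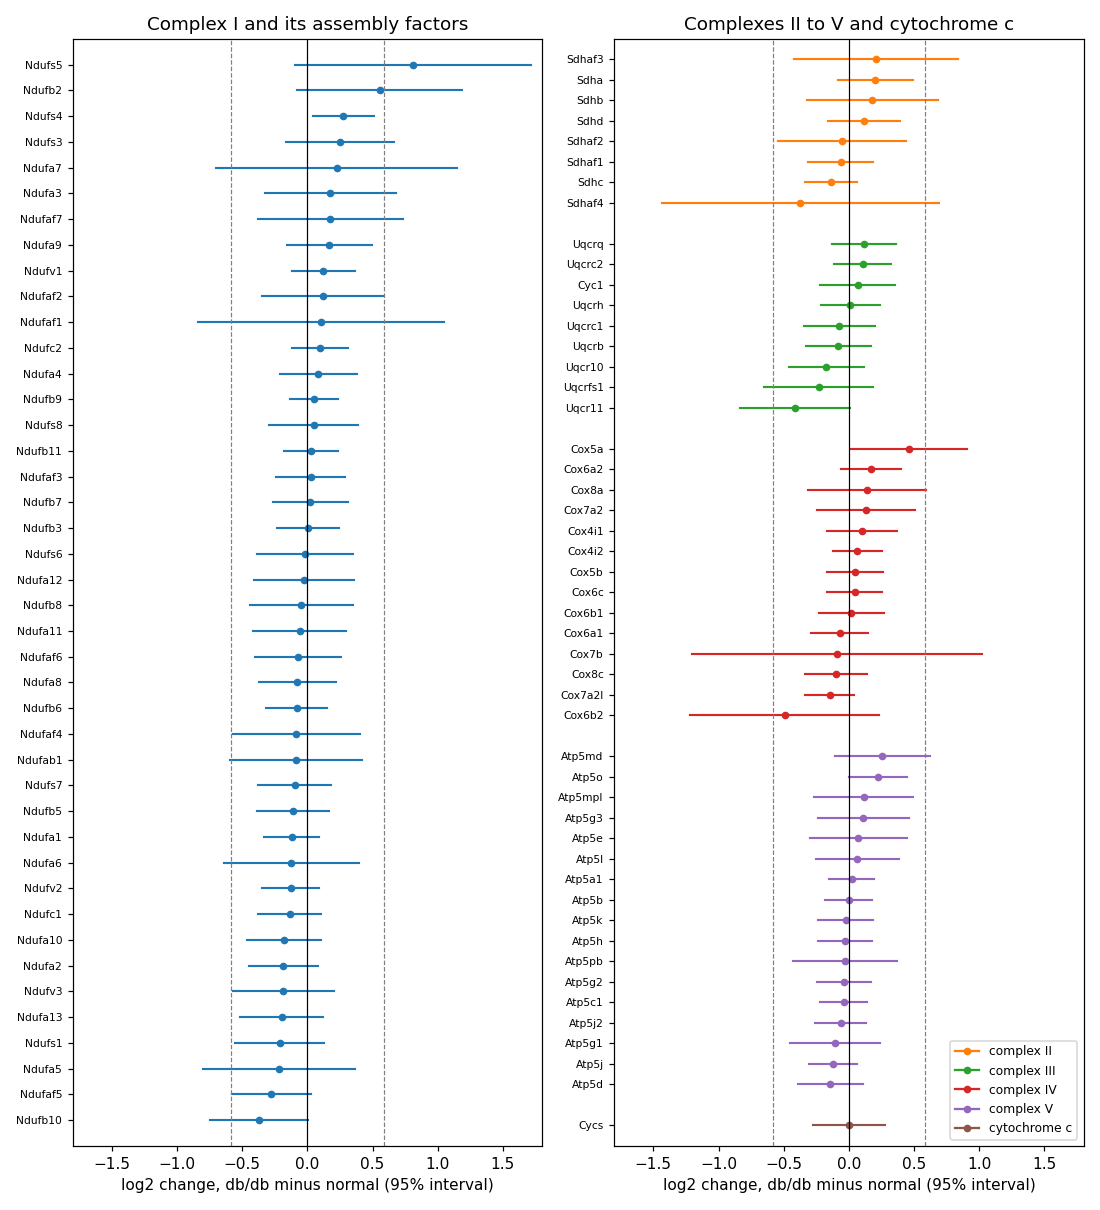
Log2 change of each of the 91 respiratory chain genes, db/db minus normal (points, with the 95% interval from limma as bars), ordered by complex and by change. Dashed lines mark 1.5-fold in either direction, and 69 of the 91 intervals lie between them.

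Complex I, the NADH dehydrogenase, had a median log2 change of -0.037 over its 42 members, with 19 higher and 23 lower means in db/db. Ndufs4, an accessory subunit of the electron input arm whose loss in mice gives a Leigh-like disease, had 11.90, 11.91 and 11.80 in db/db replicates 1, 2 and 3, against 11.65, 11.68 and 11.46 in normal replicates 1, 2 and 3. The groups did not overlap, and the difference was 0.28 on the log2 scale (1.21-fold, 95% interval 0.04 to 0.51, limma adjusted p = 0.746). Ndufs5, an accessory subunit on the outer face of the membrane arm, had 10.95, 10.23 and 10.71 in db/db, against 10.46, 9.83 and 9.16 in normal replicates 1, 2 and 3. Its values spread widely in both groups, which overlapped, and its change of 0.81 had an interval of -0.10 to 1.72 (limma adjusted p = 0.800). Without normal replicate 3 the Ndufs5 change was 0.48, and without normal replicate 1 it was 1.13.

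Ndufb10, a membrane arm subunit, lay the other way, with 10.25, 10.15 and 9.90 in db/db, against 10.23, 10.59 and 10.61 in normal replicates 1, 2 and 3. Normal replicate 1 fell among the db/db values, and the change was -0.37 (95% interval -0.75 to 0.0039, limma adjusted p = 0.783). Ndufaf5, an assembly factor that hydroxylates the core subunit Ndufs7, had 9.39, 9.49 and 9.53 in db/db, against 9.57, 9.71 and 9.96 in normal replicates 1, 2 and 3. The groups did not overlap but the gap was small, and the change of -0.28 (95% interval -0.58 to 0.03, limma adjusted p = 0.788) was -0.17 without normal replicate 3. The 7 assembly factors of complex I had a median change of 0.024.

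The catalytic core of complex I, which carries the flavin and the iron-sulfur clusters, was read by 6 members (Ndufs1, Ndufs3, Ndufs7, Ndufs8, Ndufv1 and Ndufv2) with a median change of -0.024 and a range of -0.21 to 0.25. Ndufs3 set the upper end, with 10.65, 10.65 and 11.18 in db/db, against 10.50, 10.63 and 10.60 in normal replicates 1, 2 and 3, so that db/db replicate 3 carried most of its difference. Ndufs1, an iron-sulfur subunit of the electron input arm, set the lower end, with 9.92, 9.82 and 10.01 in db/db, against 9.88, 10.17 and 10.33 in normal replicates 1, 2 and 3. The Ndufs3 change of 0.25 was 0.07 without db/db replicate 3, and the Ndufs1 change of -0.21 was -0.11 without normal replicate 3. Ndufs1 and Ndufs3 are named after their values were seen.

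Ndufa4, named for complex I although its protein is now counted with complex IV, had 12.74, 12.75 and 12.78 in db/db, against 12.75, 12.44 and 12.82 in normal replicates 1, 2 and 3. Its change of 0.08 (95% interval -0.21 to 0.38) became -0.03 without normal replicate 2, the lowest of its arrays. Ndufa1, an X-linked subunit of the membrane arm, averaged 12.45 ± 0.09 in db/db and 12.57 ± 0.05 in normal GEC (log2, SD, n = 3 each). Ndufb11, also X-linked, averaged 11.77 ± 0.10 in db/db and 11.75 ± 0.01 in normal GEC, and Ndufv3, of the flavoprotein part, averaged 9.80 ± 0.14 in db/db and 9.99 ± 0.25 in normal GEC. The Ndufv3 change of -0.19 was -0.33 without normal replicate 2 and -0.10 without normal replicate 3.

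**Figure D2:**
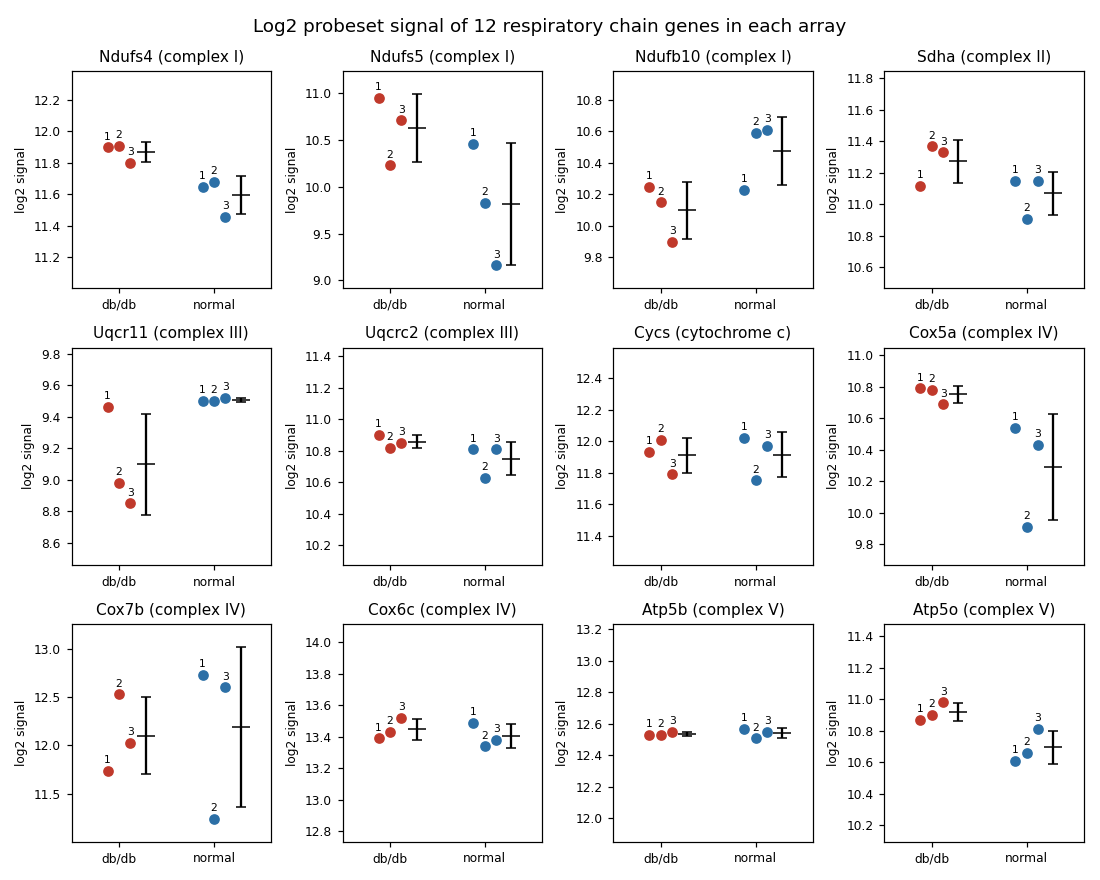
Log2 probeset signal of 12 respiratory chain genes in each array (points, numbered by replicate) of db/db (red, left) and normal (blue, right) GEC, the group mean ± SD beside the points (n = 3) and a separate axis range in each panel. Ndufs4, Cox5a, Uqcrc2 and Atp5o do not overlap between the groups, with db/db above, Uqcr11 does not overlap with db/db below, and Atp5b lies near 12.5 in all 6 arrays.

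Complex II, succinate dehydrogenase, is also an enzyme of the citric acid cycle. Its 8 members had a median change of 0.033 and were split, with 4 higher and 4 lower means in db/db. Sdha, the flavoprotein that oxidises succinate, had 11.12, 11.37 and 11.33 in db/db, against 11.15, 10.91 and 11.15 in normal replicates 1, 2 and 3. Db/db replicates 2 and 3 were above the normal arrays and replicate 1 was among them, and the change of 0.20 (95% interval -0.09 to 0.49, limma adjusted p = 0.841) was 0.12 without normal replicate 2. Sdhb, the iron-sulfur subunit, had 9.99, 10.56 and 10.19 in db/db, against 10.26, 9.76 and 10.18 in normal replicates 1, 2 and 3, with overlapping groups and a change of 0.18 that was 0.03 without normal replicate 2 and 0.03 without db/db replicate 2.

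Of the membrane anchors of complex II, Sdhc had 11.32, 11.29 and 11.29 in db/db, against 11.53, 11.40 and 11.38 in normal replicates 1, 2 and 3, and was lower in each db/db array by a small gap (change -0.14, 95% interval -0.34 to 0.06). Sdhd had 8.37, 8.10 and 8.12 in db/db, against 8.0, 8.18 and 8.07 in normal replicates 1, 2 and 3, and overlapped. Its change of 0.12 (95% interval -0.16 to 0.39) was 0.03 without db/db replicate 1. The assembly factor Sdhaf4, which helps the flavoprotein join its partner, spread over 1.49 log2 units, with 8.12, 8.83 and 8.04 in db/db, against 9.53, 8.04 and 8.54 in normal replicates 1, 2 and 3. Its change of -0.37 was -0.70 without normal replicate 2 and 0.04 without normal replicate 1.

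Complex III, the cytochrome bc complex, had a median change of -0.073 over 9 members, with 4 higher and 5 lower means in db/db. Uqcr11, a small accessory subunit, had 9.46, 8.98 and 8.85 in db/db, against 9.50, 9.50 and 9.52 in normal replicates 1, 2 and 3. The normal arrays were almost equal, db/db replicate 1 lay just under them and replicates 2 and 3 lay lower, and the change was -0.41 (95% interval -0.83 to 0.01, limma adjusted p = 0.783). It was -0.59 without db/db replicate 1 and -0.29 without db/db replicate 3. Uqcr10, another small subunit, had 10.10, 10.06 and 10.04 in db/db, against 10.11, 10.46 and 10.15 in normal replicates 1, 2 and 3, and its change of -0.17 was -0.06 without normal replicate 2, the only array that stood off.

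Uqcrfs1, the Rieske iron-sulfur protein, had 9.11, 8.85 and 9.22 in db/db, against 9.50, 9.37 and 9.0 in normal replicates 1, 2 and 3. It is named after its values were seen, its groups overlapped, and its change was -0.23 (95% interval -0.65 to 0.19). The core protein Uqcrc1 and the cytochrome Cyc1, named likewise, had changes of -0.07 and 0.07. Uqcrc2, a core protein related to the mitochondrial processing peptidases, had 10.90, 10.82 and 10.85 in db/db, against 10.81, 10.63 and 10.81 in normal replicates 1, 2 and 3. Each db/db array was higher by a narrow margin, and the change of 0.11 (95% interval -0.11 to 0.33) was 0.05 without normal replicate 2. Uqcrq, a small accessory subunit, averaged 10.30 ± 0.13 in db/db and 10.19 ± 0.06 in normal GEC. Uqcrh, the hinge protein that helps cytochrome c dock, averaged 12.37 ± 0.06 in db/db and 12.36 ± 0.10 in normal GEC, and Uqcrb, another small subunit, averaged 11.75 ± 0.15 in db/db and 11.83 ± 0.03 in normal GEC. Cycs, the mobile carrier between complexes III and IV, had 11.93, 12.01 and 11.79 in db/db, against 12.02, 11.75 and 11.97 in normal replicates 1, 2 and 3. The groups overlapped throughout, with a change of 0.00 (95% interval -0.28 to 0.27).

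Complex IV, cytochrome c oxidase, had a median change of 0.046 over 14 members, with 9 higher and 5 lower means in db/db. Cox5a, a subunit on the matrix side that contacts Cox4, had 10.79, 10.78 and 10.69 in db/db, against 10.54, 9.91 and 10.43 in normal replicates 1, 2 and 3. The groups did not overlap, and the change was 0.46 (1.37-fold, 95% interval 0.01 to 0.90, limma adjusted p = 0.773). Normal replicate 2 was the lowest of these values, and the change without it was 0.27. Cox7b, an X-linked subunit, spread over 1.5 log2 units, with 11.74, 12.53 and 12.03 in db/db, against 12.73, 11.24 and 12.60 in normal replicates 1, 2 and 3. Normal replicate 2 lay under every other array, and the change of -0.09 became -0.57 without it.

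Cox7a2l, which joins complexes III and IV into supercomplexes, had 11.44, 11.55 and 11.54 in db/db, against 11.66, 11.63 and 11.69 in normal replicates 1, 2 and 3. It was lower in each db/db array, with a change of -0.15 (95% interval -0.34 to 0.04, limma adjusted p = 0.825). Cox6c averaged 13.45 ± 0.07 in db/db and 13.40 ± 0.08 in normal GEC, and Cox5b, whose promoter window is shown, averaged 13.05 ± 0.09 in db/db and 13.01 ± 0.06 in normal GEC. Cox8a averaged 10.15 ± 0.18 in db/db and 10.01 ± 0.29 in normal GEC, and Cox7a2 averaged 11.37 ± 0.22 in db/db and 11.24 ± 0.17 in normal GEC.

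Complex IV also holds pairs of isoforms, of which one is used in most tissues and the other in a few. Cox4i1, the general form, had 12.59, 12.33 and 12.49 in db/db, against 12.40, 12.25 and 12.46 in normal replicates 1, 2 and 3, with a change of 0.10 and overlapping groups. Cox4i2, the lung isoform that low oxygen can raise, had 7.03, 6.96 and 7.06 in db/db, against 6.98, 6.91 and 6.97 in normal replicates 1, 2 and 3, all just over the level of 6.64, with a change of 0.06. Cox6a1, the general form, averaged 12.84 ± 0.09 in db/db and 12.91 ± 0.07 in normal GEC. Cox6a2, the form of heart and skeletal muscle, had 8.0, 8.04 and 8.23 in db/db, against 7.95, 7.88 and 7.95 in normal replicates 1, 2 and 3. The Cox6a2 groups did not overlap, and the change of 0.17 (95% interval -0.06 to 0.40) was 0.10 without db/db replicate 3.

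Cox6b1, the general form, averaged 12.93 ± 0.05 in db/db and 12.91 ± 0.14 in normal GEC. Cox6b2, known as a testis form, had 7.10, 7.02 and 6.66 in db/db, against 6.92, 8.0 and 7.34 in normal replicates 1, 2 and 3. Normal replicate 2 stood above all other arrays there, and the change of -0.49 (95% interval -1.22 to 0.23) was -0.20 without it. Cox8c, another testis form, was the member just inside the level, with 6.62, 6.65 and 6.75 in db/db, against 6.86, 6.81 and 6.64 in normal replicates 1, 2 and 3. The 4 genes left out were also forms of restricted tissues, with mean log2 signals of 6.52 for Cox7a1, 6.46 for Cox8b, 6.33 for Ndufa4l2 and 4.72 for Cox7b2.

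Complex V, the ATP synthase, was the steadiest of the 5 complexes by the width of its intervals. Its 17 members had a median change of -0.026 and a range of -0.14 to 0.26, with 7 higher and 10 lower means in db/db. Atp5b, the catalytic beta subunit, had 12.53, 12.53 and 12.55 in db/db, against 12.57, 12.51 and 12.55 in normal replicates 1, 2 and 3. All 6 arrays lay within 0.06, and the change was 0.00 (95% interval -0.18 to 0.17). Atp5a1, the alpha subunit beside it and named after its values were seen, had 11.52, 11.51 and 11.52 in db/db, against 11.51, 11.49 and 11.49 in normal replicates 1, 2 and 3. The median residual SD of the 5 genes of the catalytic head and central stalk was 0.031, against 0.163 over all genes, which were not matched for signal. Of these 5, Atp5d had 0.107 and Atp5e 0.196. Over complex V the median residual SD was 0.084, with 94.1% of intervals within 1.5-fold. The 53 cytosolic ribosome genes described below had 0.086 and 94.3%, so this steadiness was not particular to complex V.

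The stalks and the membrane part of complex V held its largest differences. Atp5o, the peripheral stalk protein that confers sensitivity to the inhibitor oligomycin, had 10.87, 10.90 and 10.98 in db/db, against 10.61, 10.66 and 10.81 in normal replicates 1, 2 and 3. The groups did not overlap, and the change was 0.22 (1.17-fold, 95% interval 0.0015 to 0.45, limma adjusted p = 0.780). Atp5md, a small membrane subunit that helps hold the enzyme together, had 12.68, 12.71 and 12.54 in db/db, against 12.52, 12.09 and 12.54 in normal replicates 1, 2 and 3. Its change of 0.26 (95% interval -0.11 to 0.62) was 0.11 without normal replicate 2, its lowest array. Atp5j, the coupling factor of the stalk, had 12.41, 12.37 and 12.42 in db/db, against 12.57, 12.48 and 12.52 in normal replicates 1, 2 and 3, and lay lower in each db/db array, with a change of -0.12 (95% interval -0.31 to 0.06). Atp5d, the delta subunit of the central stalk, had 9.55, 9.57 and 9.74 in db/db, against 9.89, 9.67 and 9.74 in normal replicates 1, 2 and 3, with a change of -0.14. Atp5j2 averaged 12.53 ± 0.07 in db/db and 12.59 ± 0.03 in normal GEC.

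The ring of c subunits that turns in the membrane is made by 3 genes whose mature proteins are the same. Atp5g1 averaged 9.30 ± 0.05 in db/db and 9.41 ± 0.24 in normal GEC, Atp5g2 averaged 10.68 ± 0.09 in db/db and 10.72 ± 0.04 in normal GEC, and Atp5g3 averaged 11.92 ± 0.21 in db/db and 11.80 ± 0.15 in normal GEC (log2, SD, n = 3 each). The changes were -0.11, -0.04 and 0.11, and none of the 3 had groups that stood apart.

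Grouped by role in place of complex, the members again lay near 0. The 12 subunits that carry out electron transfer had a median change of 0.059, the 46 accessory subunits -0.022, the 11 assembly factors -0.050, the 9 genes of the membrane part and peripheral stalk of complex V -0.026, and the 4 restricted isoforms -0.018. By promoter motif, the 13 members with the NRF1 core had a median of -0.07, with 2 higher and 11 lower means in db/db, and the 62 without it had a median of 0.00, with 31 of each. The 13 with the ETS motif had a median of 0.05 (9 higher, 4 lower) and the 10 with the YY1 motif -0.04 (3 higher, 7 lower). These splits were made after values were seen and were not tested.

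Some members were read by more than 1 probeset. Of the 19 with several kept probesets, 18 had changes of the same sign after rounding to 2 decimals, Cycs counted among them at 0.00, and Atp5pb did not (-0.03 and 0.07). The 3 probesets of Cycs gave 0.00, 0.03 and 0.51, the last with a mean signal of 7.00 and the only one numbered among the probesets of neighbouring genes. In 8 members (Cox7b, Atp5l, Atp5pb, Atp5g2, Ndufb11, Cycs, Ndufab1 and Atp5md) the probeset with the highest mean was numbered away from the gene's neighbours, whereas 98.5% of 18862 genes with 1 probeset sat among theirs. Several of these families have processed pseudogenes, so which copy such a probeset reads is uncertain.

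**Figure D3:**
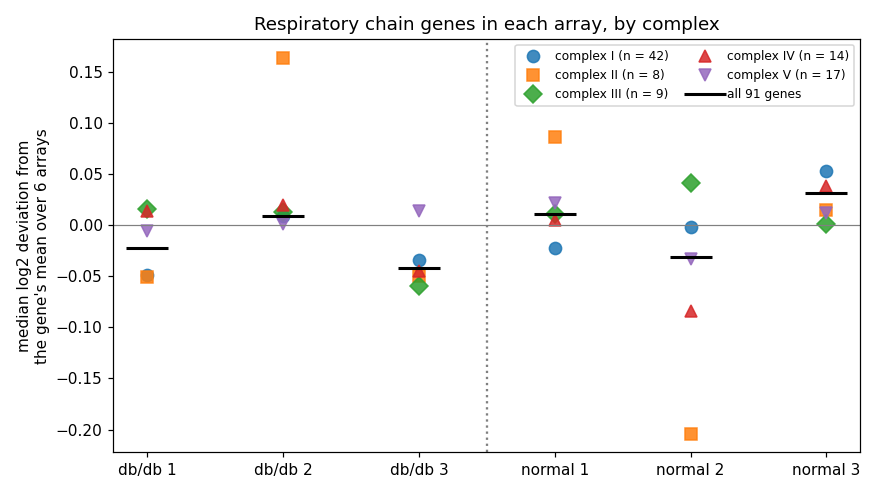
Median deviation of the genes of each complex from their own 6-array mean in each array (symbols, log2) and over all 91 genes (bars), with db/db arrays on the left and normal arrays on the right. Over all 91 genes the medians lie between -0.042 and 0.032. Complex II, counted with its assembly factors, is the farthest out, at 0.164 in db/db replicate 2 and -0.204 in normal replicate 2.

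Leaving out a single array changed the sign of 37 of the 91 changes, and 81 changed sign or moved by over 1.5 times. The 10 that did neither were Ndufa13, Ndufa2, Ndufb10, Ndufs4, Ndufv2, Uqcr11, Cox7a2l, Atp5a1, Atp5j and Atp5o. Normal replicate 2 held the lowest value of the 6 arrays for 33 of the 91 members (36.3%), against 20.8% of all genes and 22.5% of all probesets, and the highest value for 12 members (13.2%), against 22.9% of all genes. On the first principal component of all kept probesets, which held 30.5% of the variance, it lay at 65.7, and the other 5 arrays lay between -18.5 and -7.8. Of the 7 members whose values spread over more than 1.2 log2 units (Ndufs5, Cox7b, Ndufaf1, Sdhaf4, Ndufa7, Cox6b2 and Ndufb2), 5 had their lowest value and 1 its highest in this array. Ndufaf1, an assembly factor, had 9.50, 9.42 and 9.79 in db/db, against 9.45, 8.73 and 10.23 in normal replicates 1, 2 and 3. Without the array, the median change was -0.042 over the members, -0.044 in complex I, -0.015 in complex II, -0.048 in complex III, 0.016 in complex IV and -0.042 in complex V. Members at an unadjusted p under 0.05 were then 2 higher (Cox5a and Ndufs4) and 2 lower (Atp5g1 and Ndufv3), 4.40% in all, against 6.48% of all probesets in the same fit, and 0 passed after adjustment.

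**Figure D4:**
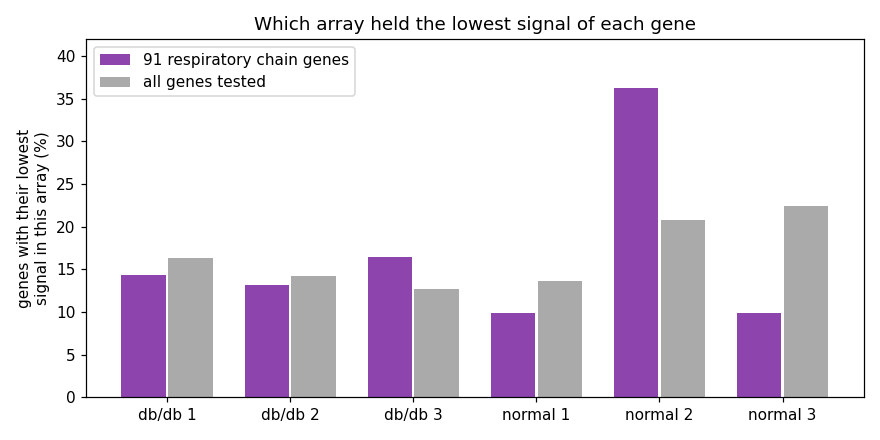
Share of genes (%) whose lowest signal of the 6 arrays fell in each array, for the 91 respiratory chain genes (purple) and for all genes tested (grey). Normal replicate 2 held the lowest value of 36.3% of the respiratory chain genes and of 20.8% of all genes.

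Genes that work with the chain were described from lists, and 0 genes of any list passed the test. A list drawn up for other assembly factors, of complexes I, III, IV and V, had a median change of -0.052 over 30 genes. It also holds Lrpprc, Slirp and Taco1, which are not such factors. At an unadjusted p under 0.05, 1 gene was higher (3.33%) and 3 were lower (10%), against 3.49% and 3.07% of all genes. Sco1, a copper chaperone of complex IV, had 7.30, 7.36 and 7.27 in db/db, against 7.02, 6.96 and 6.93 in normal replicates 1, 2 and 3, with a change of 0.34 ± 0.08 (SE, limma adjusted p = 0.546). Higd1a, a hypoxia-inducible protein that binds complex IV, had 10.82, 10.34 and 10.52 in db/db, against 11.36, 11.17 and 11.06 in normal replicates 1, 2 and 3, with a change of -0.64 ± 0.15 (SE, limma adjusted p = 0.572). Neither gene's groups overlapped, and which copy the Higd1a probeset reads is uncertain.

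The citric acid cycle and pyruvate entry had a median change of -0.100 over 17 genes, with 3 higher and 14 lower means in db/db. Of all 12763 genes kept, 6850 had a higher mean and 5913 a lower one. At an unadjusted limma p under 0.05 this list had 0 genes higher and 1 lower (5.88%), against 3.49% and 3.07% of all genes. Idh2, the mitochondrial NADP-linked isocitrate dehydrogenase, had 9.66, 9.57 and 9.69 in db/db, against 9.96, 9.98 and 9.85 in normal replicates 1, 2 and 3, which did not overlap (change -0.29 ± 0.08, SE, limma adjusted p = 0.677). Mdh2, malate dehydrogenase, averaged 10.97 ± 0.08 in db/db and 11.07 ± 0.06 in normal GEC. Mitochondrial antioxidant enzymes had a median of -0.095 over 6 genes, 5 of them with a lower mean. By the same count 0 of these were higher and 1 lower (16.7%). Txn2, mitochondrial thioredoxin, had 8.23, 8.58 and 8.43 in db/db, against 8.88, 8.84 and 8.97 in normal replicates 1, 2 and 3, with every db/db array lower (change -0.49 ± 0.11, SE, limma adjusted p = 0.562). Sod2, the mitochondrial superoxide dismutase, averaged 8.81 ± 0.18 in db/db and 8.95 ± 0.22 in normal GEC.

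Regulators of mitochondrial biogenesis had a median of -0.074 over 21 genes, 14 of them with a lower mean. At an unadjusted limma p under 0.05, 0 were higher and 1 lower (4.76%), against 3.49% and 3.07% of all genes. Sirt1, a deacetylase that acts on PGC-1alpha, had 8.68, 9.52 and 9.27 in db/db, against 9.65, 9.80 and 9.87 in normal replicates 1, 2 and 3, with db/db replicate 1 far below the rest (change -0.62 ± 0.23, SE, limma adjusted p = 0.754). Polg, the mitochondrial DNA polymerase, averaged 7.63 ± 0.19 in db/db and 7.87 ± 0.16 in normal GEC. A list drawn up for other electron donors to ubiquinone had a median of -0.022 over 10 genes, although it also holds Nnt, Aox1 and Aifm1, which are not such donors. At an unadjusted limma p under 0.05, 0 of its genes were higher and 1 lower (10%). Dhodh, of pyrimidine synthesis, had a change of -0.22 (limma adjusted p = 0.754). Etfb, of fatty acid oxidation, had -0.17 (limma adjusted p = 0.831). These 2 of the 10 genes were lower in every db/db array and 0 were higher in every one, against 5.92% and 7.39% of all genes. Membrane proteins and carriers had a median of 0.011 over 24 genes, with changes of -0.22 for Chchd3, of the crista junctions, and -0.45 for Clpp, a matrix protease.

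The mitochondrially encoded genes with a single-symbol probeset were ND3, of complex I, with a change of -0.12, and COX2, of complex IV, with -0.02, and both overlapped between groups. The COX2 probeset was numbered close to a probeset of Sdhaf4, a gene on chromosome 1, so which copy it reads is uncertain. For the other list genes, among them Higd1a and Mrpl51, the place of the probeset in the numbering is not given here. Which copy those probesets read is therefore uncertain too. The mitochondrial ribosome had a median of -0.036 over 77 genes, with 31 higher and 46 lower means, among them Mrpl51 (0.59) and Mrpl55 (-0.58), whose groups did not overlap. The cytosolic ribosome, set beside it, had a median of 0.031 over 53 genes, with 37 higher and 16 lower means. At an unadjusted p under 0.05 the mitochondrial ribosome had 2 genes higher (2.60%) and 5 lower (6.49%), against 3.49% and 3.07% of all genes, and the cytosolic ribosome had 0.

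**Figure D5:**
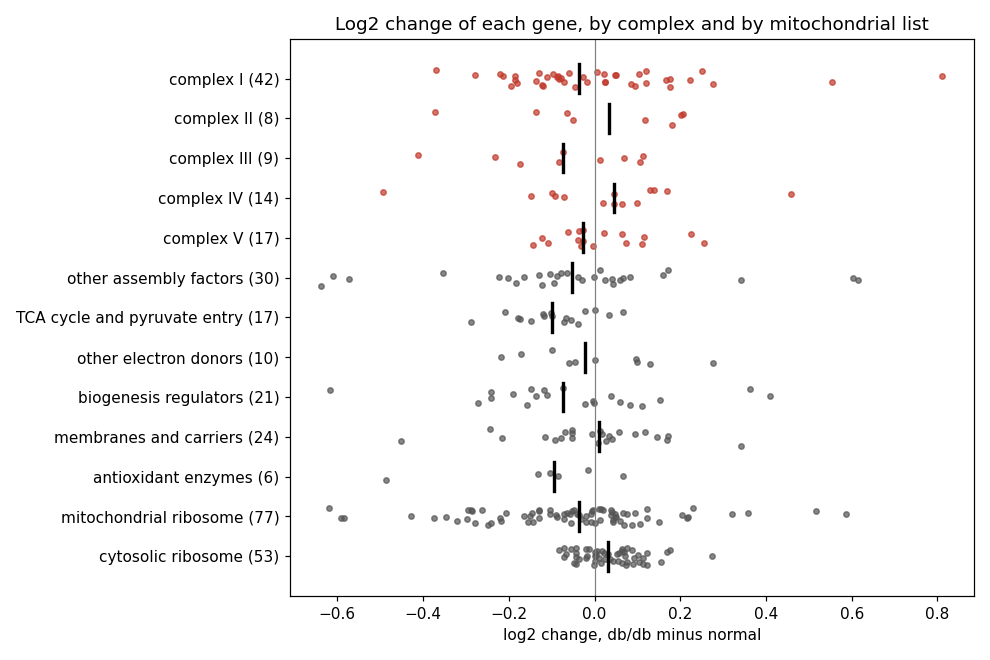
Log2 change (db/db minus normal) of each gene in the 5 complexes (red) and in the lists of related mitochondrial genes and the cytosolic ribosome (grey), with the number of genes in parentheses and the median as a black bar. The medians lie between -0.100 for the citric acid cycle list and 0.046 for complex IV.

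Markers of the sorted cells and of their neighbours were compared because kidney cell types differ in mitochondria. All 10 endothelial markers were over the level, and their summed linear signal was 62460 to 64823 in db/db and 62424 to 63453 in normal arrays. The sum covers markers that went both ways. Of the 10, 4 lay higher in every db/db array and 3 lower, against 7.39% and 5.92% of all genes. Among them were Cdh5 (change 0.21) and Tek (-0.33), each with a limma adjusted p of 0.754. Of 10 proximal tubule markers 4 were over it, with sums of 874 to 1033 in db/db and 874 to 924 in normal arrays, and Cubn, Kap, Lrp2, Miox, Slc13a3 and Slc5a12 were below it. Distal nephron markers (4 of 7 over the level) summed to 759 to 903 in db/db and 571 to 695 in normal arrays, and podocyte markers (3 of 4) to 452 to 523 in db/db and 437 to 461 in normal arrays. Mesangial markers (0 of 5) summed to 407 to 447 in db/db and 381 to 409 in normal arrays, and leukocyte markers (3 of 8) to 840 to 1868 in db/db and 1032 to 1090 in normal arrays. Of the leukocyte markers over the level, Cd68 was higher in every db/db array (change 0.76, limma adjusted p = 0.752). Tyrobp (-0.06) and Cd3e (-0.11) overlapped between the groups. Probesets shared by globin genes had changes of -1.77 to -2.07 (limma adjusted p between 0.282 and 0.376), while Alas2 and Slc4a1, the erythroid markers with a single symbol (2 of 2 over the level), summed to 270 to 300 in db/db and 284 to 309 in normal arrays. The distal nephron sums did not overlap between the groups, but they rest on low signals and, like the other sums, include markers below the level. The 4 distal nephron markers over the level had mean log2 signals of 6.47 (Pvalb) to 7.80 (Aqp2), against a level of 6.64. The part of any of these cell types in the values of the respiratory chain was not tested. In such bulk RNA, fewer cells of a type and less RNA per cell cannot be told apart.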

How the data were processed

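RNA of sorted GEC was read on 6 Affymetrix Mouse Gene ST arrays, and the groups came from the sample labels, which name biological replicates. The deposited values are log2 probeset signal, normalised by the authors with RMA in GeneSpring per the methods, whereas the submitters' processing notes name MAS5. They ran from 3.18 to 14.46 and were used as deposited. Such values are relative to the other probesets of an array, so a shift of all genes would not be seen. The number of arrays limits the precision.

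Of 35557 probesets the platform annotation gave 21789 a single symbol, 1621 several and 12147 none. The level filter (100 linear in 3 arrays, as in the methods) kept 20661. Of 123 single-symbol member probesets 119 were kept, and 6 with several symbols, one of them a chain symbol, were not used. All 95 symbols matched RefSeq, through which older names were read. Groups were compared with limma 3.58.1 (R 4.3.3) by lmFit and eBayes, two-sided, with Benjamini-Hochberg adjustment over the 20661 probesets and a threshold of 0.05. Errors are SD over 3 arrays, or limma's SE where marked, and intervals are limma's 95% intervals. No list was tested.

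The members, gene lists and tests were chosen with earlier results of these data known. Named were, per complex, the 2 members of smallest p in each direction and the 2 of highest signal, isoform pairs, the 2 genes of smallest p in each list, and those beside the level filter. Others named in the text, or members listed by group overlap or spread, were picked after their values were seen. Alternatives were quantile normalisation, median centring, no filter, a level of 200, eBayes with an intensity trend and with a robust prior, a replicate block, the methods' t-test, 1 probeset per gene, only probesets with a gene listed, averaging the probesets of each gene, and leaving out each array. Taking the probeset numbered among a gene's neighbours (within 10 probesets and 5 Mb) was chosen after seeing the data. The fit was tested on simulated data. Plots used matplotlib 3.10.9 (Python 3.11.15).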

Additional observations from a re-analysis of the deposited data

How the results depend on the processing

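Over 18 settings, 0 members passed the adjusted threshold, and the smallest adjusted p of a named member was 0.595. Of 753 values of the 42 named members 751 moved by less than the spread between replicates, with 25 changes of sign. The other 2 were Cycs, at 0.18 as the mean of its probesets and 0.51 from the probeset among its neighbours (chosen after seeing the data). Changing the filter, the test, the replicate block or the probesets tested leaves a log2 change as it is by construction. With the same probeset, leaving out an array moves a change by less than the spread between replicates by construction. The count therefore rests on the few remaining settings and says little about robustness. Members lower at an unadjusted p under 0.05 numbered 0 as reported, 1 with no filter, with an intensity trend (with or without a robust prior) and with the mean of probesets, and 2 with median centring, the methods' t-test, 1 probeset per gene and only probesets with a gene listed. Of all genes, Scn7a passed and was lower with 1 probeset per gene (count 1), and with the mean of probesets 1 was higher (Adamts9) and 1 lower (Scn7a). The median of complex V was -0.0031 both with the mean of probesets and with the neighbour probeset.

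Leaving out each array in turn, members at an unadjusted p under 0.05 ranged from 0 to 3 higher and 0 to 5 lower, while 1030 to 1456 of all probesets (5.09% to 7.17%) were at that p in either direction. Without normal replicate 1 the members' share was 8.79%, against 6.28% of all probesets. The 3 higher became 0 without db/db replicate 1 or 2 and 1 without db/db replicate 3 or normal replicate 3, and the 5 lower came without normal replicate 1. Members whose groups did not overlap ranged from 8 to 14 higher and 9 to 13 lower, where fewer arrays overlap less by construction. Medians ranged from -0.0512 to 0.0067 in complex I, -0.0797 to 0.0017 in complex III, -0.0419 to 0.0108 in complex V, -0.1547 to -0.0149 for biogenesis regulators, -0.1286 to -0.0235 for antioxidant enzymes, -0.0621 to 0.0353 for the list of other electron donors and -0.0264 to 0.0124 for membrane proteins and carriers. The cause of these shifts was not tested.

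The labels name only biological replicates, and same-numbered deviations correlated at -0.004, 0.035 and -0.03. No shared shift was seen by replicate number, though these values cannot tell whether same-numbered samples were handled together. With the replicate block 0 members passed and 2 were higher at an unadjusted p under 0.05 (Ndufs4 and Ndufs5).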
